A study of Homo sapiens with 6 samples.

Results

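AHSG, SERPINA1, HP, CST3, SPINK1 and RBP5 are 6 genes whose products are mostly secreted proteins, several of them made in large amounts by the liver and several of them inhibitors of proteases. They were taken by gene symbol from a table of RNA levels in Caco-2 cells and make up 6 of its 2257 rows. Each symbol stood in a single row, and all 6 passed the minimum of a mean of 1 FPKM (fragments normalized for transcript length and library size) that 2034 of the 2206 distinct rows passed. Caco-2 cells derive from a human colorectal adenocarcinoma and serve as a model of the intestinal epithelium, and their genotype is labelled WT in both groups. Poly(A) RNA was sequenced from 3 control samples and from 3 samples treated with hypoxia/reoxygenation (H/R), a cell culture counterpart of intestinal ischemia and reperfusion. The study's methods describe culture at low oxygen followed by several durations of reoxygenation, without naming the one that was sequenced. For RNA-seq they name H/R cells transfected with small interfering RNAs, a control one or one that silences TMEM2, so the H/R libraries may come from transfected cells, and any such difference from control cannot be told apart from H/R. The labels give no oxygen level or time, do not say whether any of the 6 samples was transfected, and do not state that replicates were separate cultures. The p-values therefore set the difference between groups only against the spread of these libraries within groups, a spread that may be technical.

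Hepatocytes secrete most of the proteins of blood plasma, and the genes for many of them are switched on by a shared set of transcription factors that includes the HNF1, HNF4, FOXA and C/EBP families. Caco-2 cells, like the fetal intestine, express part of this programme along with enterocyte genes. Secreted inhibitors such as serpins, cystatins and Kazal-type inhibitors bind proteases outside the cell or in the secretory pathway and hold them inactive. The shared description holds for the 6 genes to different degrees. AHSG, HP and SERPINA1 encode abundant plasma proteins of the liver. CST3 encodes a secreted inhibitor that nearly every nucleated cell makes. SPINK1 encodes an inhibitor best known from the pancreas and also made in the gut. RBP5 encodes a cytosolic retinol carrier that is neither secreted nor a protease inhibitor.

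All 6 genes were lower after H/R (limma on log2(FPKM + 1), Benjamini-Hochberg adjusted p under 0.05 over all 2034 tested rows). In the same fit 52.9% of the tested rows were lower and 46.1% were higher, and 21 rows did not pass. In all 6 genes every H/R sample lay below every control sample, a pattern that 52% of the tested rows shared. The rows of the table look selected as changed. Of the 2234 rows with both group means above 0, 92.2% differed by a ratio of mean FPKM of at least 2, up or down, and the sources used here state no rule of selection. Genes outside the table were not analysed here, and that a gene of the table passed the test carries little information by itself. The table holds no counts, so the depth of each library is unknown. The sizes of the falls differed among the 6 genes. SERPINA1, CST3 and SPINK1 fell by 1.01 to 1.04 on the log2 scale. With a correction for GC content their log2 changes were -0.97, -0.36 and -1.61. This correction also removes any part of the H/R difference that follows GC content. AHSG fell by 1.48, HP by 2.45 and RBP5 by 2.76. The median log2 change of the 6 genes was -1.26, against -0.80 over all tested rows and -1.17 over the 1076 rows that were lower.

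To show the stretch of genome from which these RNAs start, 3 promoters are printed in full, chosen as the pair with matches to liver factor motifs and as the most GC-rich one. The sequences are those of RefSeq on the build GRCh38.p14, from 250 bases before to 50 bases after the annotated start, read 5′ to 3′ on the strand of the gene. AHSG lies on the plus strand at chr3:186612810-186613109, SERPINA1 with its downstream start on the minus strand at chr14:94388553-94388852, and CST3 on the minus strand at chr20:23637906-23638205. RefSeq promoters were matched for 5 of the 6 genes, with an upstream and a downstream start for SERPINA1, and capitals mark motif matches.
AHSG: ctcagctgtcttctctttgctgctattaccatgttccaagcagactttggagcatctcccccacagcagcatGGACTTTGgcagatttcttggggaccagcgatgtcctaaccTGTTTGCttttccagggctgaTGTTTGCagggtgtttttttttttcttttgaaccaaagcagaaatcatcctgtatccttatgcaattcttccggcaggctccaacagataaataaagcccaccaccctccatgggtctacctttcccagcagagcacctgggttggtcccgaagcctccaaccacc
SERPINA1: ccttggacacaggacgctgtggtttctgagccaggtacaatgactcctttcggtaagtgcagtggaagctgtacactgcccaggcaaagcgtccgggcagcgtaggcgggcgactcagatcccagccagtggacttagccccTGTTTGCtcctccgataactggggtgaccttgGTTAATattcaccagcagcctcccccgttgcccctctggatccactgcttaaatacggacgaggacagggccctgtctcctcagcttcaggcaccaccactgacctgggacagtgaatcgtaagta
CST3: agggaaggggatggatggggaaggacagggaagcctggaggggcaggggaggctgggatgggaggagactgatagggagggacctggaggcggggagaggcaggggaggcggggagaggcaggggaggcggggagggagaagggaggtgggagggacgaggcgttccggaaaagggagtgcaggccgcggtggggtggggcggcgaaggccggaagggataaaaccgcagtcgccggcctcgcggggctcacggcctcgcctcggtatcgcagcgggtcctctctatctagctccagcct

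The motifs were chosen after the expression values were seen and were searched on both strands. The FOXA core was searched as the letters TGTTTGC and occurs in 3.89% of 35116 RefSeq promoters of the same length. The HNF1 core was searched as GTTAAT, which 6.88% hold, and the HNF4 core as CAAAGTCC, which 1.20% hold. The hypoxia-inducible factor (HIF) core was searched as ACGTG, which 21.4% hold, the TATA box as TATAAA, which 11.5% hold, and the C/EBP core as the palindrome TTGCGCAA, which 0.151% hold. No match overlapped another. The AHSG promoter held the FOXA letters at -137 to -131 and at -116 to -110 relative to the start, and the HNF4 letters on the opposite strand at -178 to -171. The downstream SERPINA1 promoter, the start used in hepatocytes, held the FOXA letters at -108 to -102 and the HNF1 letters at -76 to -71. The upstream SERPINA1 promoter and the CST3 promoter held none of the 6 motifs. The HIF letters stood in the RBP5 window at -139 to -135 and in the SPINK1 window at 40 to 44, just after the start. A match describes the letters and is neither a binding site nor a cause. The promoters also differed in base composition. The CST3 window was 69.7% GC with 21 CG dinucleotides, above 78.9% of all promoters in GC content, whereas the AHSG and SPINK1 windows were both 49.3% GC with 3 and 1 CG dinucleotides, against a median of 58.7% over all promoters.

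**Figure D1:**
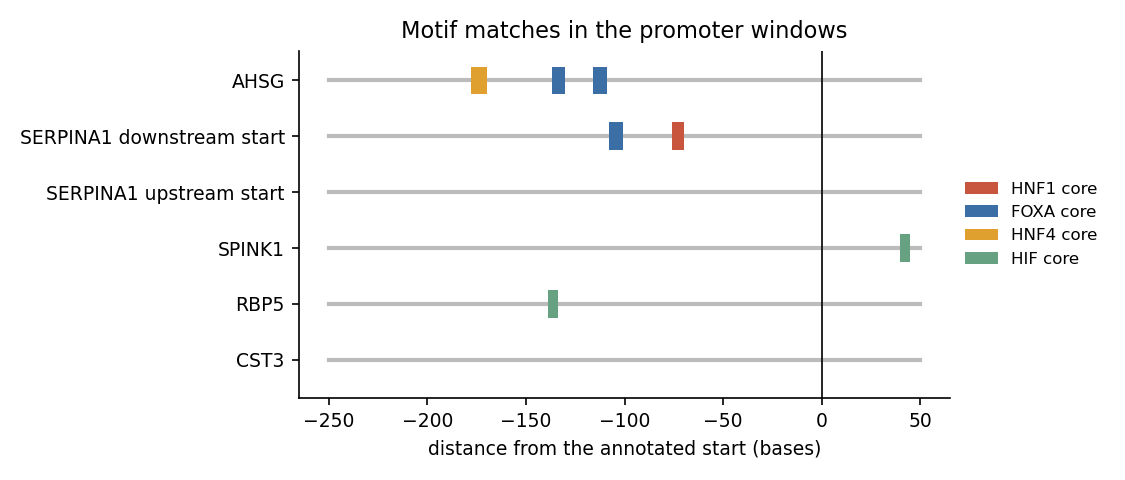
Motif matches in 6 promoter windows of 5 genes, drawn to scale. The x axis is the distance from the annotated start in bases, grey lines are the windows from 250 bases before to 50 bases after it, and coloured boxes are matches on either strand, and the AHSG window holds 3 matches, the downstream SERPINA1 window holds 2, and the upstream SERPINA1 and CST3 windows hold none.

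AHSG encodes fetuin-A, a plasma glycoprotein of the cystatin superfamily that binds calcium phosphate and keeps it in solution. The 3 control replicates, in order, had 751, 802 and 656 FPKM, and the 3 H/R replicates had 244, 308 and 239 FPKM. The highest H/R sample was 348.6 FPKM below the lowest control sample, and replicate 2 was the highest of both groups. The mean went from 736.3 ± 73.7 FPKM (SD, n = 3) to 263.5 ± 38.4 FPKM, a ratio of 2.79. The log2 change was -1.48 ± 0.17 (SE, limma adjusted p = 7.14e-05), with a 95% interval from -1.86 to -1.10. Of the 1076 rows that were lower, 21.5% had a larger fall.

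HP encodes haptoglobin, the plasma protein that captures hemoglobin set free from red cells, and it is an acute phase gene of the liver. In order of replicate number, HP was listed at 6.29, 12.05 and 12.42 FPKM in control and at 0.47, 1.47 and 1.17 FPKM after H/R. The groups stood 4.82 FPKM apart, and replicate 1 was the lowest of both groups. The mean went from 10.3 ± 3.44 FPKM (SD, n = 3) to 1.04 ± 0.513 FPKM, a ratio of 9.89. The log2 change was -2.45 ± 0.29 (SE, limma adjusted p = 9.20e-05), with a 95% interval from -3.10 to -1.79, and 13 of the 1076 falls were larger. At such low levels a pseudocount of 1 makes a change look smaller, and with a pseudocount of 0.1 the log2 change of HP was -3.25. Relative to the mean, HP varied more between replicates than the abundant genes, with a coefficient of variation of 33.5% in control and 49.5% after H/R, against 7.39% and 6.29% for CST3. HP has a near-identical neighbour, HPR, which is not among the rows analysed here, and how reads shared by the pair were assigned is not stated, so the value of HP is uncertain to that extent.

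SERPINA1 encodes alpha-1 antitrypsin, the main plasma inhibitor of neutrophil elastase, which is also made by enterocytes and by Caco-2 cells. Replicates 1, 2 and 3 had 1496, 1647 and 1352 FPKM in control and 654, 824 and 708 FPKM after H/R. As for AHSG, replicate 2 was the highest of both groups, and the groups stood 527 FPKM apart. The mean went from 1498 ± 148 FPKM (SD, n = 3) to 728.9 ± 87.0 FPKM, a ratio of 2.06. The log2 change was -1.04 ± 0.16 (SE, limma adjusted p = 2.90e-04), with a 95% interval from -1.41 to -0.67. A larger fall was seen in 68.4% of the rows that were lower. The size of this fall depended on the scaling, with a log2 change of -0.52 (limma adjusted p = 0.0325) after median-of-ratios scaling over the rows of the table.

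CST3 encodes cystatin C, a small secreted inhibitor of cysteine cathepsins. Replicates 1, 2 and 3 had 1557, 1562 and 1368 FPKM in control and 686, 769 and 765 FPKM after H/R. The gap between the groups, 598.7 FPKM, was the widest of the 6 genes in FPKM. The mean went from 1496 ± 110.5 FPKM (SD, n = 3) to 740.1 ± 46.5 FPKM, a ratio of 2.02. The log2 change was -1.01 ± 0.15 (SE, limma adjusted p = 2.33e-04), with a 95% interval from -1.35 to -0.68, and 73.1% of the falls were larger. Its transcripts are 64.1% GC, the highest of the 6 genes. With a linear correction for GC content in each library, fitted together with the replicate number, the log2 change of CST3 was -0.36 (limma adjusted p = 0.00825). The correction also takes out any part of the H/R difference that follows GC content.

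SPINK1 encodes a Kazal-type inhibitor that protects the pancreas from trypsin that is active too early. Replicates 1, 2 and 3 had 1545, 1364 and 1465 FPKM in control and 836, 625 and 683 FPKM after H/R. Replicate 2 was the lowest of both groups here, whereas it was the highest of both in AHSG and SERPINA1. The mean went from 1458 ± 90.9 FPKM (SD, n = 3) to 715 ± 109 FPKM, a ratio of 2.04. The log2 change was -1.04 ± 0.17 (SE, limma adjusted p = 3.16e-04), with a 95% interval from -1.41 to -0.67. SPINK1 transcripts are 43.1% GC, the lowest of the 6 genes, and the same GC correction that made the fall of CST3 smaller made that of SPINK1 larger, with a log2 change of -1.61 (limma adjusted p = 2.33e-05). After median-of-ratios scaling the log2 changes of SPINK1 and CST3 were -0.52 and -0.49 (limma adjusted p = 0.0452 and 0.0403).

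RBP5 encodes a cellular retinol-binding protein of the cytosol, known from liver and kidney. In order of replicate number, RBP5 was listed at 6.33, 11.22 and 6.86 FPKM in control and at 0, 0.45 and 0.57 FPKM after H/R. Every control sample was above 6 FPKM and every H/R sample was below 1 FPKM. RBP5 thus passed the minimum mean of 1 FPKM only through the control samples, so its place among the falls rests in part on this minimum. The log2 change was -2.76 ± 0.26 (SE, limma adjusted p = 2.95e-05), with a 95% interval from -3.34 to -2.17, and 6 of the 1076 falls were larger. Because a library was listed at 0, this size rests on the pseudocount, and the log2 change was -4.58 with a pseudocount of 0.1 and -5.83 with a pseudocount of 0.01. The gene overlaps CLSTN3 in the RefSeq annotation. CLSTN3, which encodes a synaptic calsyntenin, was itself lower (24.7 to 10.7 FPKM, log2 change -1.15), and since the sources do not state whether strand was used in counting, reads from the shared stretch cannot be told apart.

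**Figure D2:**
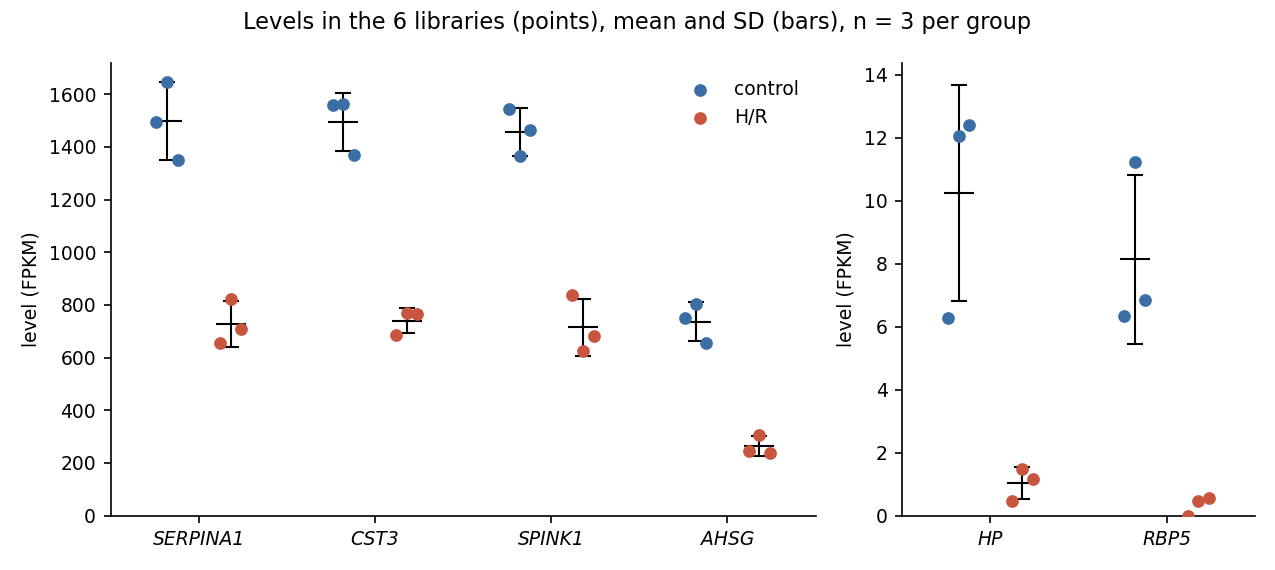
Levels of the 6 genes in FPKM, with SERPINA1, CST3, SPINK1 and AHSG on the left axis and HP and RBP5 on a separate axis on the right. Points are single libraries (blue control, red H/R), horizontal marks and bars are the mean and SD of 3 libraries, left out for RBP5 after H/R because 1 library was listed at 0, and in each gene all 3 H/R points lie below all 3 control points.

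On the FPKM scale the 6 genes formed 3 tiers of level, in control and after H/R alike. SERPINA1, CST3 and SPINK1 stood together at means of 1498, 1496 and 1458 FPKM in control and of 728.9, 740.1 and 715 FPKM after H/R, and their ranges overlapped in both groups. They ranked 13, 12 and 14 by mean FPKM among the 2206 rows. AHSG came next, with every control value below every control value of these 3 genes, at rank 37. HP and RBP5 lay far lower, at ranks 1486 and 1587, and their ranges overlapped in both groups. Together the 6 genes made up 3.41%, 3.82% and 3.65% of the summed FPKM of all rows in the control replicates, in order, and 2.15%, 2.17% and 2.20% after H/R. These shares are of the selected rows and not of the transcriptome. In bulk RNA, fewer cells that express a gene and less RNA of the gene per cell cannot be told apart.

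Whether the genes fell by different amounts was tested on the log2 ratio of each pair in each sample, for 15 pairs (exact permutation test, two-sided, 3 against 3 samples, where 0.1 is the smallest p the design allows). No pair could therefore reach 0.05. The 95% intervals given here do not come from this test. They use a t distribution with the pooled variance within groups and are not adjusted for the 15 pairs. Of the 15 pairs, 10 reached that smallest p, with an adjusted p of 0.15 over the 15 pairs. The log2 change of AHSG minus that of SERPINA1 was -0.44 (95% interval -0.58 to -0.30), the narrowest interval of the 15 pairs, and AHSG minus CST3 was -0.47 (-0.77 to -0.17). SERPINA1 minus HP was 1.41 (0.48 to 2.34), and SERPINA1 minus RBP5 was 1.72 (1.07 to 2.37). Both sizes grow with a smaller pseudocount, to 2.21 and 3.54 with a pseudocount of 0.1 and to 2.34 and 4.79 with 0.01. At 0.01 the interval of SERPINA1 minus RBP5 was -0.32 to 9.90 and included 0. Among the 3 most abundant genes the log2 differences were -0.03 for SERPINA1 minus CST3 (-0.24 to 0.18), -0.0045 for SERPINA1 minus SPINK1 (-0.69 to 0.68) and 0.02 for CST3 minus SPINK1 (-0.52 to 0.57), with exact permutation p-values of 0.7, 1 and 1. The intervals with SPINK1 are wide and do not show that these genes fell alike. Their ratios of mean FPKM, 2.06 for SERPINA1, 2.02 for CST3 and 2.04 for SPINK1, lay just above 2. A ratio of at least 2 was met by 92.2% of the rows with both group means above 0. Whether the selection of the rows placed these falls close to each other was not tested. The GC correction, which can remove part of the H/R difference itself, gave log2 changes of -0.97, -0.36 and -1.61 for SERPINA1, CST3 and SPINK1. These were no longer close to each other. HP and RBP5 differed by 0.31 (-0.41 to 1.03, exact permutation p = 0.4), and AHSG minus SPINK1 was -0.45 (-1.14 to 0.24, exact permutation p = 0.3).

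**Figure D3:**
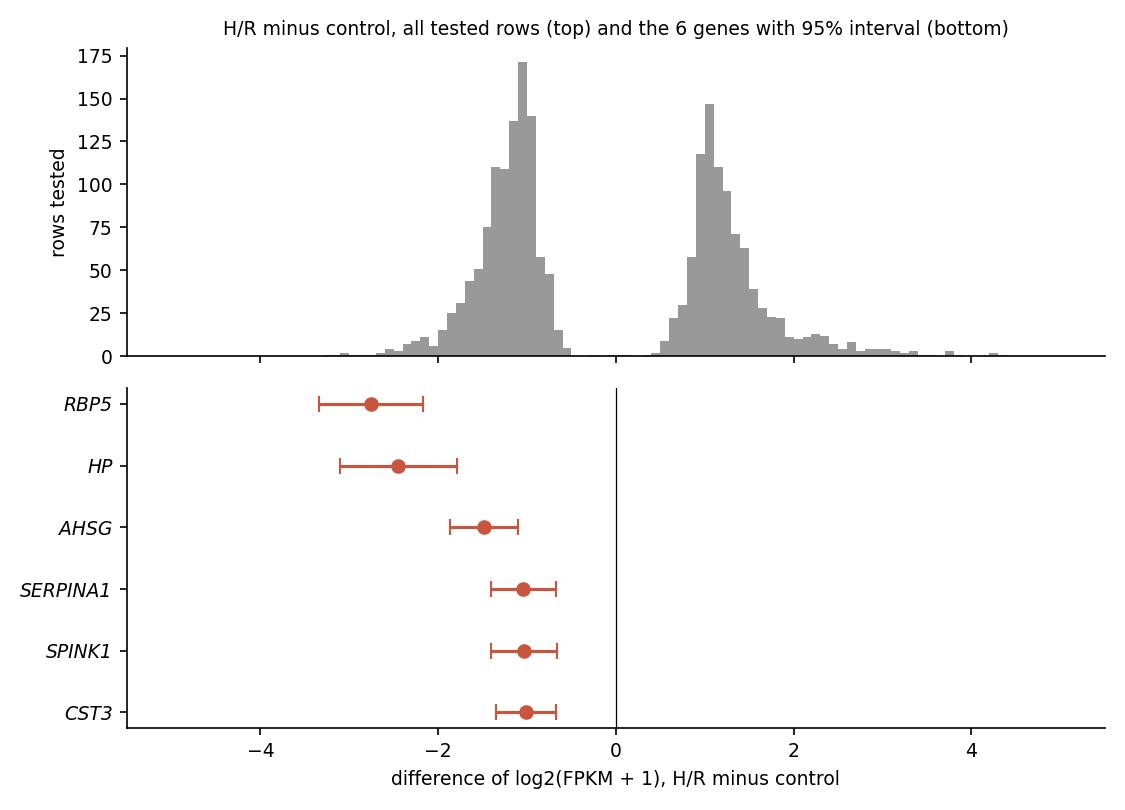
Distribution of the log2 change of all 2034 tested rows (top, grey, rows per bin) above the log2 changes of the 6 genes with their 95% intervals (bottom, red), on one x axis of H/R minus control in log2(FPKM + 1). The near-empty middle of the grey distribution shows how few rows with a small change the table holds. SERPINA1, SPINK1 and CST3 sit in the body of the falls, toward that near-empty middle, and HP and RBP5 lie near the lower end.

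The rows nearest to each gene were found by the root mean square difference over the 6 samples of log2(FPKM + 1) minus the control mean, a description with no test. Those nearest to HP were plasma protein genes, namely SERPINA10 at 0.16, ORM1 at 0.24 and ORM2 at 0.26, the last 2 encoding the acute phase protein orosomucoid. AHSG lay nearest to ETNK2, an ethanolamine kinase gene, at 0.046, RASL11A at 0.060 and AGT, which encodes angiotensinogen, at 0.076. SERPINA1 lay nearest to SFXN3 (0.055), LOC107987423 (0.063) and SCRN2 (0.073). CST3 lay nearest to ARHGAP22 (0.042), PNPLA4 (0.070) and SPACA9 (0.071), and SPINK1 to UNG (0.062), DHRS13 (0.073) and RNF157 (0.074). RBP5 lay at 0.19 from HOGA1, a mitochondrial enzyme gene of liver and kidney, at 0.29 from TMT1B and at 0.32 from NAT8. Among themselves, SERPINA1 and CST3 were the closest pair at 0.078. For AHSG the nearest of the other genes, SERPINA1, lay at 0.32 and ranked 420 among tested rows with a gene symbol. For SPINK1 it was CST3 at 0.20, at rank 220. The same rank was 5 for SERPINA1, 8 for CST3, 6 for RBP5 and 15 for HP.

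Other plasma protein genes in the table were lower as well. A list of plasma proteins held 57 genes, of which 20 had a row and 19 were tested. This list, like the others below, was chosen with earlier results of these data known, so its counts describe the genes and test no set. All 19 were lower (limma) and without overlap between the groups, where 52.9% of all tested rows were lower and 52% lower without overlap. Their median log2 change was -1.57, against -1.17 over all rows that were lower. The factor X gene F10 went from 107.1 ± 10.7 to 24.6 ± 4.58 FPKM (SD, n = 3 per group, log2 change -2.09), the orosomucoid gene ORM2 from 60.2 ± 6.24 to 11.7 ± 3.02 FPKM (-2.30) and HPX from 22.5 ± 1.44 to 3.47 ± 1.26 FPKM (-2.43). HPX encodes hemopexin, which scavenges heme as haptoglobin scavenges hemoglobin. ITIH1, which encodes a heavy chain of the inter-alpha-trypsin inhibitor, went from 3.41 ± 0.788 to 0.327 ± 0.115 FPKM (-1.72). The changes ranged from -2.43 in HPX up to that of the transferrin gene TF (2.96 ± 0.442 to 0.993 ± 0.384 FPKM), the smallest of the 19, and 5 of the 19 were at or below -2. The fall of HP was close to that of HPX, and those of SERPINA1, CST3 and SPINK1 lay near the small end of this range, comparisons that were not tested. ITIH4 was under the minimum. ITIH1 and TF were below 1 FPKM on average after H/R and passed the minimum mean of 1 FPKM only through the control samples. Genes as low after H/R that did not fall could not be counted, so the 19 of 19 rests in part on this minimum.

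Serpins, the family of SERPINA1, went both ways. Of 33 other serpin genes, 11 were in the table and 10 were tested, of which 7 were lower and 3 higher (limma), against 52.9% and 46.1% of all tested rows, with a median log2 change of -1.36. All 7 falls were in the A, C and F groups. They ranged from -2.39 to -1.04 and included SERPINA4, which encodes kallistatin (41.0 ± 2.50 to 7.83 ± 1.61 FPKM, log2 change -2.26), SERPINF2, which encodes the plasmin inhibitor antiplasmin and stood in a row with a numbered symbol (220.5 ± 11.2 to 43.8 ± 18.2 FPKM, -2.39), SERPINA10, an inhibitor gene of activated factor X (17.0 ± 4.41 to 2.67 ± 0.839 FPKM, -2.29), and SERPINA6, whose product carries cortisol and inhibits no protease (11.9 ± 1.82 to 2.56 ± 0.820 FPKM, -1.87). The antithrombin gene SERPINC1 had a log2 change of -1.04, the same as SERPINA1 to 2 decimals. The 3 rises were low genes of the B and E groups. All 3 were below 1 FPKM on average in control and passed the minimum mean of 1 FPKM only through the H/R samples. Serpins as low in control that did not rise could not be counted, so the split by group rests in part on this minimum. They included SERPINE2, which encodes a nexin that inhibits thrombin and went from 0.653 ± 0.346 to 2.49 ± 1.18 FPKM (log2 change 1.05), and SERPINB8, an intracellular serpin, which went from 0.703 ± 0.350 to 4.27 ± 0.610 FPKM (1.64).

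SERPINA1 lies in a cluster of serpin genes, and a look at its neighbours, chosen after the values were seen, took the 10 protein-coding genes on each side in RefSeq order. Of these 20, 9 were in the table. SERPINA10, SERPINA6, SERPINA4 and SERPINA5, already counted among the falling serpins above, were all lower, against 52.9% of all tested rows. Their log2 changes were -2.29, -1.87, -2.26 and -1.39, each a larger fall by its estimate than the -1.04 of SERPINA1. SERPINA11, next to SERPINA1, was listed at 1.84, 0.83 and 0.53 FPKM in control and at 0 in all 3 H/R samples, and was under the minimum for testing, as was ASB2. The genes IFI27L1 and IFI27L2 were lower by estimates of -1.15 and -1.49, and SYNE3, at the edge of the stretch, was higher by 1.35. Around AHSG, 5 of 20 neighbours were in the table, and they were mixed. KNG1, the kininogen gene and a relative of AHSG in the cystatin superfamily, and the sialyltransferase gene ST6GAL1 had log2 changes of -1.73 and -2.19, while LIPH, ETV5 and EIF4A2 were higher by 1.05, 1.59 and 1.35. The other 4 genes had between 1 and 3 neighbours in the table.

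Few other inhibitors of the classes of CST3 and SPINK1 were in the table. Of 11 genes with cystatin domains, KNG1 was the only one, and it went from 27.5 ± 13.2 to 7.21 ± 2.68 FPKM (SD, n = 3 per group). KNG1 was also counted in the plasma protein list. Of 27 further inhibitor genes, Kazal-type genes included, 2 were in the table and none was Kazal-type. TFPI, the inhibitor gene of the tissue factor pathway, was higher (22.3 ± 9.22 to 46.5 ± 13.9 FPKM, log2 change 1.06, limma adjusted p = 0.00775), with groups that overlapped, and PCSK1N, which encodes an inhibitor of a prohormone convertase, was lower (log2 change -1.05). Of 39 protease genes, 6 were in the table, of which 5 were lower and 1 higher, against 52.9% and 46.1% of all tested rows, and the median log2 change of the 6 was -1.20. TMPRSS6, which encodes the liver protease matriptase-2, went from 6.72 ± 0.747 to 0.797 ± 0.336 FPKM (-2.12), CTSA, a lysosomal carboxypeptidase gene, from 368.6 ± 42.5 to 149.7 ± 5.52 FPKM (-1.29), and TMPRSS2 and PCSK6 had log2 changes of -1.11 and -1.04. PRSS22, a trypsin-like serine protease gene, was higher (70.2 ± 6.46 to 150.6 ± 23.2 FPKM, 1.08). TMPRSS6, below 1 FPKM on average after H/R, passed the minimum mean of 1 FPKM only through the control samples. None of the 6 protease genes encodes a cysteine cathepsin, the class that cystatin C inhibits.

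Of 33 genes of retinoid handling 5 had a row, and all 5 were lower (limma), against 52.9% of all tested rows. Their median log2 change was -1.43, against -1.17 over all rows that were lower. RBP4 among them was also counted in the plasma protein list. RBP4, which encodes the retinol carrier of plasma, went from 687.5 ± 94.4 to 253.3 ± 21.8 FPKM (SD, n = 3 per group, log2 change -1.43), close in level and change to AHSG. RDH5, a retinol dehydrogenase gene, went from 16.0 ± 0.331 to 4.63 ± 0.663 FPKM (-1.60), and DHRS4, which encodes a retinal reductase, from 39.8 ± 5.18 to 13.4 ± 1.63 FPKM (-1.50). CRABP1, which encodes a cytosolic carrier of retinoic acid, had a log2 change of -1.20. RBP2, which encodes the intestinal counterpart of RBP5, went from 289.2 ± 49.6 to 141.3 ± 32.7 FPKM (-1.04). RBP2 thus stayed above 100 FPKM in every H/R sample, whereas RBP5 was below 1 FPKM in each.

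Some regulators of liver genes were in the table as well. Of 28 transcription factor genes of liver and intestine, 5 were in the table and 4 were tested, and all 4 were lower (limma), against 52.9% of all tested rows, with a median log2 change of -1.31. CEBPA, which encodes a C/EBP factor of hepatocytes and fat cells, was at 409.9, 325 and 292 FPKM in control and at 83.6, 85.4 and 76.4 FPKM after H/R, in order of replicate number (log2 change -2.04 ± 0.18 SE, adjusted p = 1.90e-05). GATA5, a factor of endoderm, went from 2.90 ± 0.174 to 0.613 ± 0.0351 FPKM (-1.27) and NR2F2, a nuclear receptor gene, from 196.8 ± 32.7 to 87.1 ± 10.3 FPKM (-1.16). GATA4 was under the minimum, and GATA5, below 1 FPKM on average after H/R, passed it only through the control samples. Genes of acute phase signalling went the other way. Of 16 listed, 5 were in the table and 4 were tested, and all 4 were higher, against 46.1% of all tested rows, with a median log2 change of 1.84. The 4 signalling genes were the NF-kB subunit genes NFKB2 (2.33) and RELB (2.15), the interleukin 6 receptor gene IL6R (2.97 ± 0.730 to 10.4 ± 0.854 FPKM, 1.54) and the feedback inhibitor gene SOCS3 (6.84 ± 1.77 to 18.0 ± 3.87 FPKM, 1.28). HP, ORM1 and ORM2, acute phase genes of the liver, were lower in the same samples. The RNA of these 4 genes does not show whether the signalling itself changed. The part of these regulators in the falls was not tested.

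**Figure D4:**
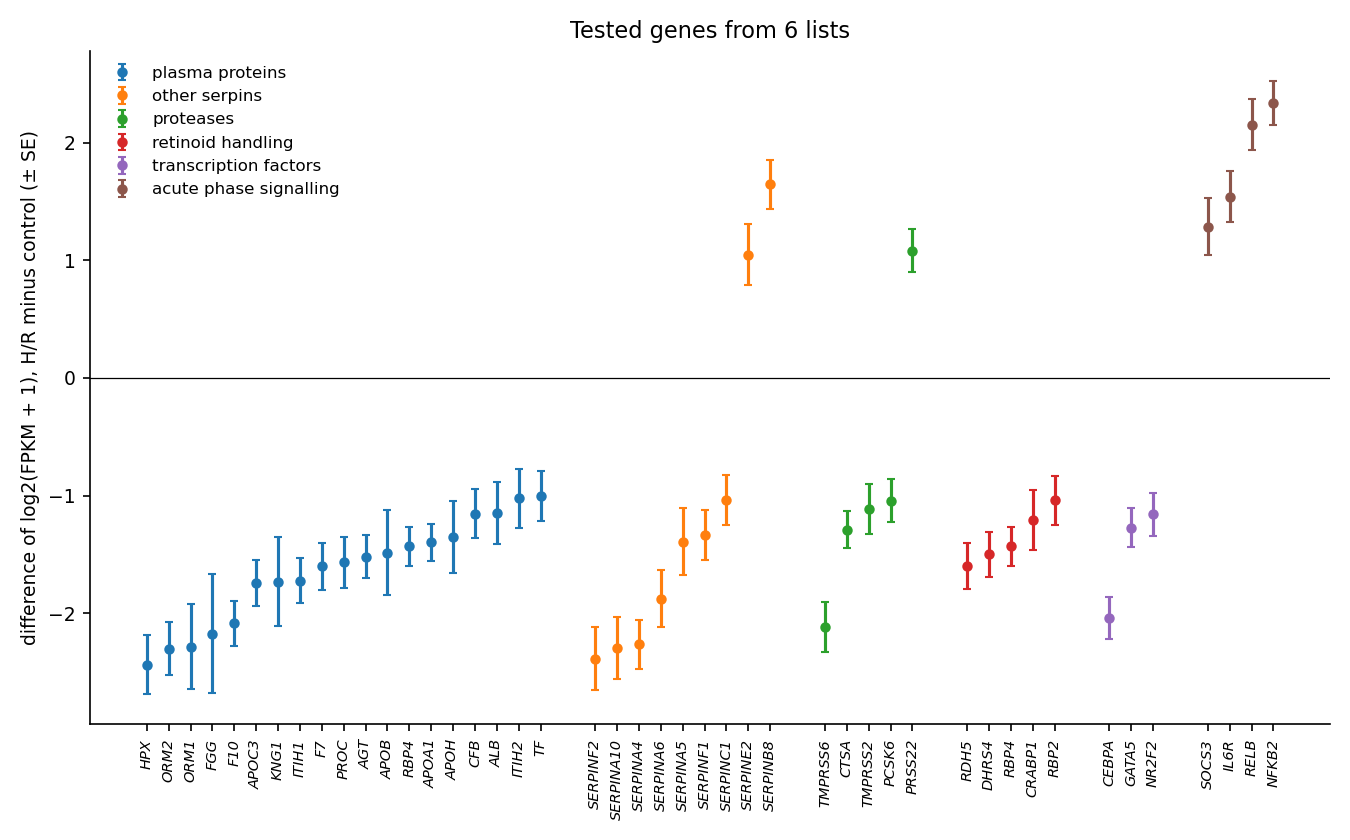
Log2 change (H/R minus control, log2(FPKM + 1)) with SE of tested genes from 6 lists, n = 3 libraries per group. Plasma protein, retinoid and transcription factor genes all lie below 0, the 4 genes of acute phase signalling all lie above 0, and serpins and proteases lie on both sides, and RBP4 is on 2 lists and is drawn under both.

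Markers of cell types moved with the groups. Of 18 intestinal epithelium markers, 6 were in the table. ALPI, ANPEP and TFF3 were lower with log2 changes of -1.07, -0.87 and -1.51, and SI, KRT20 and MUC2 were under the minimum. SI went from a mean of 1.38 to 0.480 FPKM, whereas KRT20 stood at 0.19 to 0.43 FPKM in control and at 1.32 to 1.68 FPKM after H/R, without overlap, and was not tested. The summed level of the 6, most of it TFF3, went from a range of 262.1 to 457.3 FPKM in control to 103.1 to 162.1 FPKM after H/R. MUC2, the mucin gene of goblet cells, was listed at 0.01, 0 and 0 FPKM in control and at 0.16, 0.17 and 0.07 FPKM after H/R. Defining markers such as VIL1 and CDX2 were not among the rows, so the identity of the cells cannot be checked on them here. Of 12 hepatocyte markers, 7 were in the table, 3 of them AHSG, HP and SERPINA1. All 7 were lower, against 52.9% of all tested rows, and ALB and TF are also on the plasma protein list. CPS1 and TF were below 1 FPKM on average after H/R and passed the minimum mean of 1 FPKM only through the control samples. The other 4, ALB, TF, CPS1 and MAT1A, summed to 57.7 to 86.3 FPKM in control and to 16.2 to 23.1 FPKM after H/R. Of markers of cells that a pure line should lack, the 2 fibroblast genes in the table of 8 listed summed to 20.3 to 28.2 FPKM in control and 27.3 to 34.7 FPKM after H/R (PDGFRA higher, COL1A1 lower), the endothelial gene ESAM of 6 listed lay at 3.15 to 4.12 and 7.94 to 11.4 FPKM, and the immune gene CD14 of 7 listed at 10.4 to 15.7 and 4.91 to 5.96 FPKM. The part of these shifts in the falls of the 6 genes was not tested.

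The falls held in every alternative that was run, but their size depended on how libraries were scaled and corrected. Each gene stayed lower and past the threshold in 19 alternatives, and RBP5 in 18, since its mean was under the stricter minimum of 5 FPKM. Scaling to equal totals used a factor that differed between H/R and control by -0.35 (log2) on average, and median-of-ratios scaling a factor that differed by -0.52. With them the median log2 change of all rows moved from -0.80 to -0.53 and -0.40. Under these scalings AHSG had log2 changes of -1.13 and -0.97, and it had -0.90 after quantile normalization, which moved the median of all rows to -0.61. The libraries of a group also differed along GC content, with slopes per 10 points of GC of 0.26 in control replicate 1 and -0.26 in control replicate 3, and of 0.16 and -0.12 in H/R replicates 1 and 3. The median GC content was 57.1% in rows that were lower, 47.6% in rows that were higher and 53.7% over all tested rows. AHSG, SERPINA1, HP and RBP5 lay between 50.3% and 54.2%, near that median, and after the GC correction, which moved the median of all rows to -0.35, their log2 changes were -1.41, -0.97, -2.60 and -2.82.

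**Figure D5:**
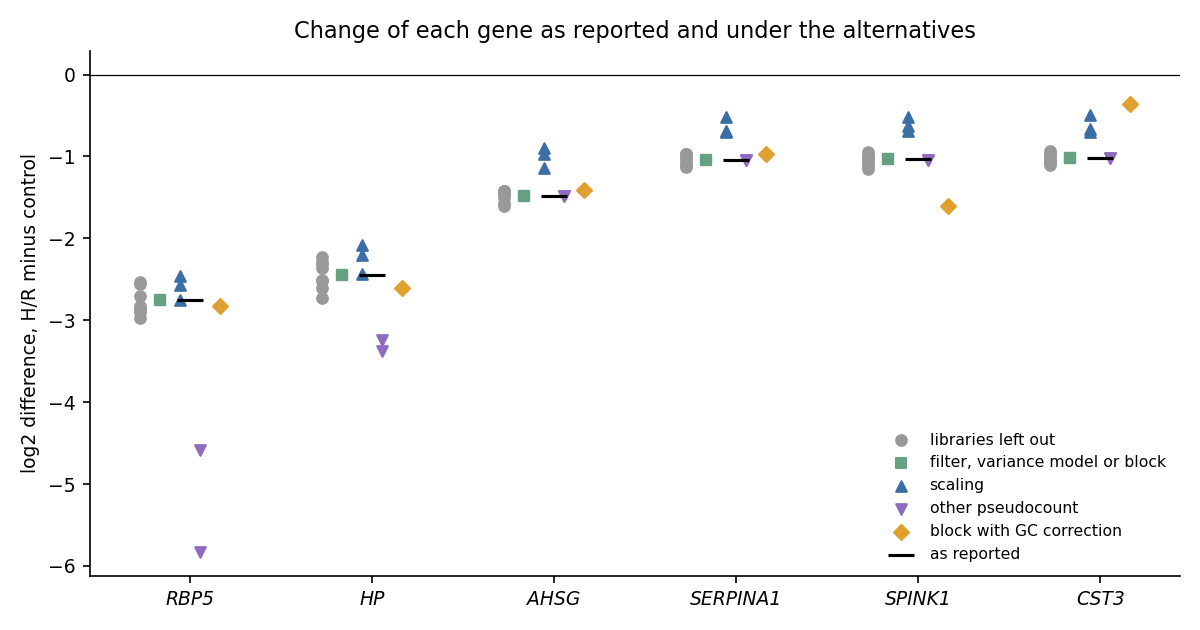
Log2 change of each of the 6 genes as reported (black bar) and under each alternative (points, by kind of alternative), H/R minus control. Every point lies below 0, and smaller pseudocounts move RBP5 and HP, scaling moves AHSG, SERPINA1, SPINK1 and CST3, and the GC correction moves CST3 up to -0.36 and SPINK1 down to -1.61.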

How the data were processed

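Libraries of poly(A) RNA from 6 Caco-2 samples were read as pairs of 150 bp. The authors deposited log2 values under column names that read FPKM. They were taken as log2(FPKM + 1), because 100% of them turn into multiples of 0.01 FPKM when reversed (tolerance 1e-05). Aligner, counter and strand setting were not given in the sources used here. Both builds in the submitters' processing notes, GRCm38 and mm10, are of mouse although gene symbols are human, so coordinates are those of RefSeq. Groups came from sample titles. Symbols were matched to RefSeq (2018 directly, 137 as numbered copies, 23 through older symbols, 10 unmatched, 69 assembled loci), and 51 identical copies were dropped. Rows with a mean of at least 1 FPKM were tested with limma 3.58.1 in R 4.3.3 (group only, moderated two-sided test with mean-variance trend, adjusted p under 0.05), and the model was tested on simulated data. Alternatives changed the pseudocount, minimum, scaling, variance model, block and samples. Leaving out both samples numbered 1 or 3 was added after seeing the data. Named genes were the 6 genes, up to 4 per list with the lowest adjusted p in its majority direction and any going the other way, and the 3 nearest rows per gene. A few genes chosen this way are left unreported, and others were named after their values were seen. The genes and lists were chosen with earlier results of these data known.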

Additional observations from a re-analysis of the deposited data

How the results depend on the processing

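The table holds no counts and few genes without a change, so depth and a scaling on stable genes are unknown. Over all alternatives the log2 changes ranged from -1.60 to -0.90 for AHSG, -1.13 to -0.52 for SERPINA1, -3.38 to -2.08 for HP, -1.10 to -0.36 for CST3, -1.61 to -0.52 for SPINK1 and -5.83 to -2.46 for RBP5, with no call lost. The highest adjusted p (limma) of each was 0.00336, 0.0325, 0.00659, 0.0403, 0.0452 and 0.00424. Leaving out single samples gave 880 to 942 higher and 1061 to 1075 lower rows, and without both samples numbered 1 or both numbered 3, chosen after seeing the data, 936 and 928 were higher and 1075 and 1052 lower. Scaling gave 950 higher and 998 lower rows for equal totals and 959 and 838 for median of ratios, where most calls (53.4%) were higher, against 46.5% without it, and 41.2% of rows were lower. Whether the replicate number pairs the samples is not stated, and the values do not settle it. Correlations of same-numbered deviations were 0.50, 0.072 and 0.52. H/R replicate 1 went against control replicate 3 (-0.50) and H/R replicate 3 against control replicate 1 (-0.49). H/R replicate 2 correlated best with control replicate 3, but weakly (0.11). With a replicate block 946 rows were higher and 1082 lower. The 6 genes kept their log2 changes, with smaller SEs (0.16 for HP, against 0.29 without the block). With the block and the GC correction the counts were 762 and 970 of 1962 rows. Differences between pairs near 0 changed sign when single samples were left out, with ranges of -0.090 to 0.015 for SERPINA1 minus CST3, -0.19 to 0.19 for SERPINA1 minus SPINK1 and -0.097 to 0.19 for CST3 minus SPINK1, and no permutation p could pass in any setting.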
